A study of Mus musculus with 9 samples.

Results

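The mRNAs of 10 matricellular and related extracellular matrix glycoproteins were followed in the retinal pigment epithelium (RPE), the pigmented cell layer behind the retina, of wild-type mice. The genes were Ccn1, Ccn2, Fn1, Tnc, Thbs1, Thbs2, Postn, Sparc, Bgn and Efemp1. They were found by exact match of their symbol in the deposited expression table, which lists 40202 genes, and all 10 passed the filter on low counts. Bulk RNA-seq libraries came from 3 groups of 3 samples each. Treated aged mice were 24 months old and had received vutiglabridin, a small molecule, for 6 months. Aged controls were 24 months old, and young controls 9 months old, neither with the compound. The labels give no strain, sex or batch, and do not say that the libraries are separate animals, so p-values measure only the spread between these samples. The genes were chosen by their expression over these 3 groups, with earlier results known. Their levels and fold changes are therefore given as a description, without a test.

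Matricellular proteins are secreted into the extracellular matrix and signal through integrins and other receptors rather than serving mainly as scaffold. They are generally scarce in resting adult tissue and increase in wounds, fibrosis and mechanically loaded tissue. CCN1 and CCN2 are classical targets of the co-activators YAP and TAZ, which bind DNA through TEAD factors, and CCN2 is also a target of TGF-beta signalling. The RPE lies on Bruch's membrane, a layered matrix to which several of these proteins contribute.

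Each library held between 44196290 and 56797891 counts over genes. The sum of 12 RPE markers lay between 11534 and 17427 CPM (counts scaled to the library's total, TMM-adjusted) in treated aged libraries, between 14862 and 17455 CPM in aged controls and between 19501 and 21506 CPM in young controls, and all 12 reached 1 CPM in each group. Markers listed for other cells were counted too, which alone does not show how much of each cell type was there. Fibroblast markers summed to between 1956 and 2746 CPM in treated aged libraries, between 2489.7 and 2756 CPM in aged controls and between 2735 and 3397 CPM in young controls. Endothelial markers summed to between 1152 and 1435 CPM in treated aged libraries, between 1087 and 1138 CPM in aged controls and between 1236.5 and 1406 CPM in young controls. Glial markers summed to between 3766 and 4702 CPM, between 4350 and 4562 CPM and between 3767 and 4798.5 CPM, in the same order. The part of these cells in the values below was not tested. Treated aged replicate 2 stood apart, with red blood cell markers at 5131 CPM, against 91.1 and 644 CPM in its group and between 206 and 339 CPM in all controls. Its stratified epithelium markers summed to 324 CPM, against 7.61 and 62.8 CPM in its group and between 2.55 and 29.1 CPM in controls; 6 of those 9 markers were at 0 in at least 1 library. Young control replicate 1 was also known from earlier results of these data to stand apart. It had counts in 28873 genes, against 30906 and 31411 in its group. A chi-square per gene, which measures how far the counts of 2 libraries differ, was 34.1 and 41.2 against its group. The other young control pair had 15.8, and pairs of treated aged libraries had between 64.2 and 105. Some values below are also given without treated aged replicate 2 and young control replicate 1, from the other 7.

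Promoter sequence was available for 7 of the 10 genes, in 9 windows of 250 bases before an annotated start (RefSeq, GRCm38.p6). Ccn2, Fn1 and Thbs1 had no window and were not searched. The TEAD motif GGAATG, read on both strands, occurred in 1 of these 9 windows and in 12.6% of 32851 windows of the same length. AP-1 was searched by the loose pattern TGANTCA, with any base at N. It occurred in 1 of 9 and in 6.75% of all windows, and the match in Efemp1 has A at N. The CArG box, bound by serum response factor, occurred in 0 of 9 and in 1.47% of all windows. The windows of the 2 genes with a match are printed because the capitals show the matched letters. In Ccn1, on the minus strand, the match runs from 103 to 98 bases before the start and reads as the reverse complement. In Efemp1, on the plus strand, it runs from 154 to 148 bases before the start.
Ccn1 chr3:145649986-145650235: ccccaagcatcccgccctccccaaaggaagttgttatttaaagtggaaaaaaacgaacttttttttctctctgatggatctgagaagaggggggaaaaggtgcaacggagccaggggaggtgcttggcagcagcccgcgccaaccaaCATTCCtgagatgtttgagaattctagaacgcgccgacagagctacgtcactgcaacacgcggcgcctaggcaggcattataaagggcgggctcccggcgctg
Efemp1 chr11:28852955-28853204: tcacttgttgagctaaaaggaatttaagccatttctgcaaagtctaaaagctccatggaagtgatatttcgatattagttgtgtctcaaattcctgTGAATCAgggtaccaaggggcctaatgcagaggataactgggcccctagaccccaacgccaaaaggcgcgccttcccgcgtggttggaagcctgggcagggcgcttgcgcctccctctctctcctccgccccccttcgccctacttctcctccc
A match describes letters in a window and says nothing of binding.

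Together the 10 genes took 0.319%, 0.406% and 0.295% of all counts in treated aged libraries, against 0.181%, 0.172% and 0.163% in aged controls and 0.154%, 0.142% and 0.143% in young controls. The groups did not overlap, and the gap was wider between treated aged and aged control libraries than between the controls. In bulk samples, fewer cells of a type and less RNA per cell cannot be told apart, and likewise for more.

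**Figure D1:**
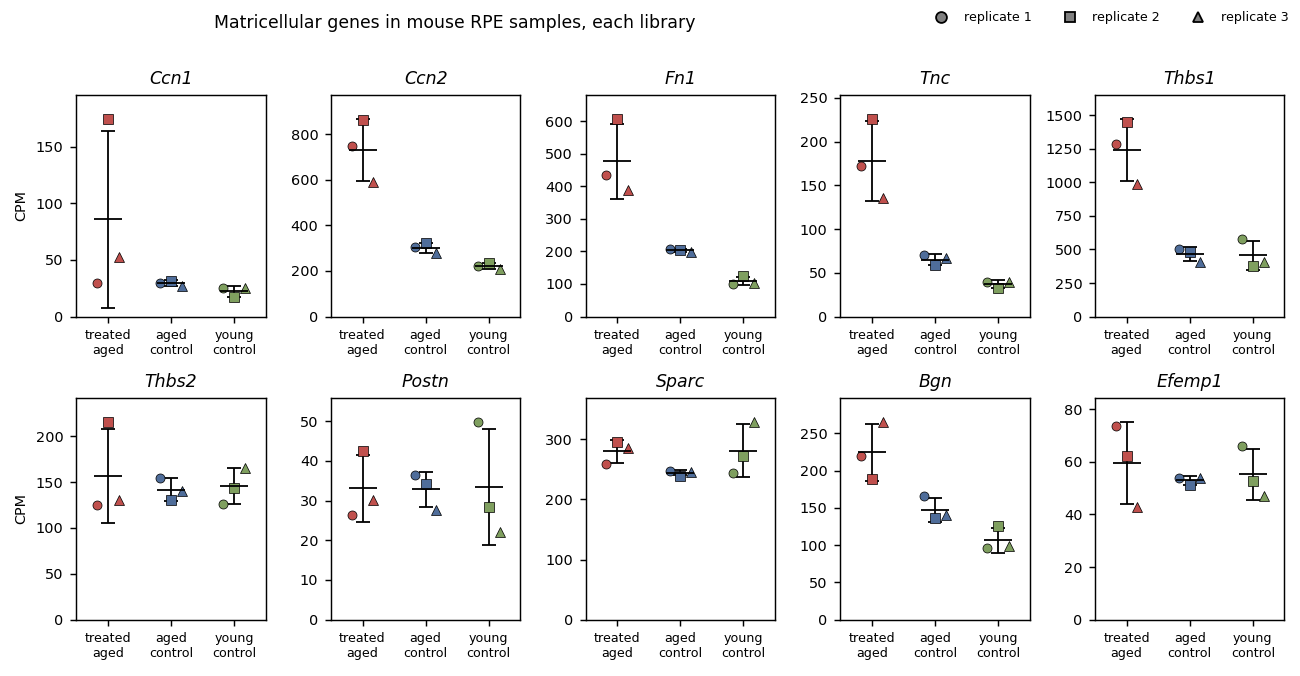
CPM of each of the 10 genes (vertical axis) in every library of the 3 groups (horizontal axis); symbols give the replicate number, and bars the mean ± SD of 3 libraries. Ccn2, Fn1, Tnc and Thbs1 lie higher in every treated aged library than in any control, while Ccn1 has 1 treated aged library at 175 CPM and another at 29.9 CPM.

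The CCN genes encode cysteine-rich matricellular signalling proteins that bind integrins and growth factors. Ccn2, long known as connective tissue growth factor, lies at position 24471340 to 24474581 on the plus strand of chromosome 10 in the deposited table. It had 745, 860.5 and 589.6 CPM in treated aged libraries, against 303, 322 and 277 CPM in aged controls and 222, 233 and 209 CPM in young controls. No 2 groups overlapped, and the treated aged libraries were all higher than both control groups. The fitted log2 fold change was 1.28 ± 0.13 (SE) for treated aged against aged control, 0.44 ± 0.13 for aged against young control, and 1.73 ± 0.13 for treated aged against young control. Gm15270 overlaps it on the opposite strand over 362 bases, with between 2986 and 5247 counts a library, against between 9783 and 40125 for Ccn2.

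Ccn1 lies on chromosome 3, at 145352726 to 145355740 on the minus strand. It had 29.9, 175 and 52.3 CPM in treated aged libraries, against 30.0, 31.8 and 26.8 CPM in aged controls and 24.8, 16.8 and 25.4 CPM in young controls. The treated aged libraries were spread 5.83-fold from lowest to highest, and the lowest of them fell among the aged controls. Treated aged replicate 2, the library with the most red cell and stratified epithelium RNA, carried most of the difference. The log2 fold change for treated aged against aged control was 1.54 ± 0.58, but 0.48 without that library and 1.94 without treated aged replicate 1. Against young control it was 1.94 ± 0.59, and 0.96 in the 7 libraries. The part of the red cell and epithelial RNA in this value was not tested.

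The balance of the CCN pair differed from library to library. The count of Ccn2 was 24.9, 4.93 and 11.3 times that of Ccn1 in treated aged libraries, against 10.1, 10.1 and 10.3 times in aged controls and 8.94, 13.8 and 8.22 times in young controls. The aged controls held nearly 1 ratio, and the treated aged libraries lay on both sides of it.

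Fn1 encodes fibronectin, which links cells to the matrix through integrins, and occupies 71624632 to 71692439 on the minus strand of chromosome 1. It had 433, 608 and 387 CPM in treated aged libraries, against 206, 204 and 199 CPM in aged controls and 100.1, 124 and 103 CPM in young controls. The groups did not overlap, with treated aged libraries highest and young controls lowest. On the log2 scale the difference was 1.23 ± 0.16 for treated aged against aged control, 0.90 ± 0.16 for aged against young control and 2.13 ± 0.16 for treated aged against young control.

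Tnc encodes tenascin-C, a hexameric glycoprotein that modulates adhesion to fibronectin and appears in wounds and during development. Its gene spans 63878022 to 63965554 on the minus strand of chromosome 4. It had 173, 226 and 135 CPM in treated aged libraries, against 70.3, 58.4 and 66.4 CPM in aged controls and 39.6, 32.1 and 39.8 CPM in young controls. As for Fn1, the groups did not overlap and young controls were lowest. On the log2 scale the difference was 1.45 ± 0.17 for treated aged against aged control, 0.81 ± 0.17 for aged against young control and 2.26 ± 0.18 for treated aged against young control. The gene 8030451A03Rik lies on the opposite strand over 38441 bases of Tnc, and its count was between 0.421 and 0.509 of that of Tnc in every library. The library kit keeps strand, but whether counting used it is not given in the sources used here, so the levels of the pair are uncertain.

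Thbs1 encodes thrombospondin-1, which inhibits angiogenesis, binds CD47 and CD36 and activates latent TGF-beta. The gene lies at 117942357 to 117957614 on the plus strand of chromosome 2. It had 1289.7, 1450.6 and 992 CPM in treated aged libraries, against 506, 482 and 406 CPM in aged controls and 581, 379.6 and 406 CPM in young controls. All treated aged libraries were higher than all controls, while the control groups overlapped. The log2 fold change was 1.42 ± 0.19 for treated aged against aged control, 0.03 ± 0.18 for aged against young control and 1.45 ± 0.19 for treated aged against young control. Without young control replicate 1 the value for aged against young control was 0.24.

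Thbs2 encodes thrombospondin-2, the closest relative of thrombospondin-1 and likewise an inhibitor of angiogenesis. It had 125, 216 and 129.9 CPM in treated aged libraries, against 155, 130 and 140 CPM in aged controls and 126, 144 and 166 CPM in young controls. The groups overlapped, with treated aged replicate 2 the highest of all 9 libraries. The log2 fold change for treated aged against aged control was 0.15 ± 0.20, and -0.15 without that library. Against young control it was 0.11 ± 0.20, and -0.28 in the 7 libraries. The count of Thbs1 was 10.3, 6.73 and 7.63 times that of Thbs2 in treated aged libraries, against 3.27, 3.70 and 2.89 times in aged controls and 4.60, 2.64 and 2.45 times in young controls. The ratio was thus higher in every treated aged library than in any control.

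Bgn encodes biglycan, a small leucine-rich proteoglycan that binds collagen and TGF-beta. Its gene lies on the X chromosome, at 72527207 to 72539542 on the plus strand. It had 219, 189 and 266 CPM in treated aged libraries, against 166, 136 and 141 CPM in aged controls and 95.8, 126 and 98.6 CPM in young controls. The groups did not overlap, and the order was the same as for Fn1 and Tnc. The highest treated aged library was replicate 3, not replicate 2. On the log2 scale the difference was 0.60 ± 0.15 for treated aged against aged control, 0.47 ± 0.15 for aged against young control and 1.07 ± 0.15 for treated aged against young control.

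Sparc encodes osteonectin, a collagen-binding protein that also regulates adhesion. It had 259, 296 and 286 CPM in treated aged libraries, against 248, 239.8 and 245 CPM in aged controls and 243, 272 and 329 CPM in young controls. The treated aged libraries lay just above the aged controls, and the young controls overlapped both. The log2 fold change was 0.20 ± 0.11 for treated aged against aged control, -0.20 ± 0.11 for aged against young control and -0.01 ± 0.11 for treated aged against young control.

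Postn encodes periostin, a fasciclin-domain protein of fibrous tissue. It had 26.4, 42.6 and 30.2 CPM in treated aged libraries, against 36.4, 34.3 and 27.8 CPM in aged controls and 49.9, 28.4 and 22.1 CPM in young controls. The widest spread was among young controls, and all groups overlapped. For treated aged against aged control the log2 fold change was 0.01 ± 0.29. For aged against young control it was -0.03 ± 0.29, and 0.38 without young control replicate 1, the highest library.

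Efemp1 encodes fibulin-3, whose mutation in humans causes an inherited macular dystrophy with drusen under the RPE. It had 73.7, 62.2 and 42.6 CPM in treated aged libraries, against 53.8, 51.1 and 53.8 CPM in aged controls and 66.0, 52.7 and 47.1 CPM in young controls. The groups overlapped, and the treated aged libraries lay on both sides of the aged controls. The log2 fold change for treated aged against aged control was 0.17 ± 0.18, and it lay between -0.02 and 0.37 when 1 library was left out.

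**Figure D2:**
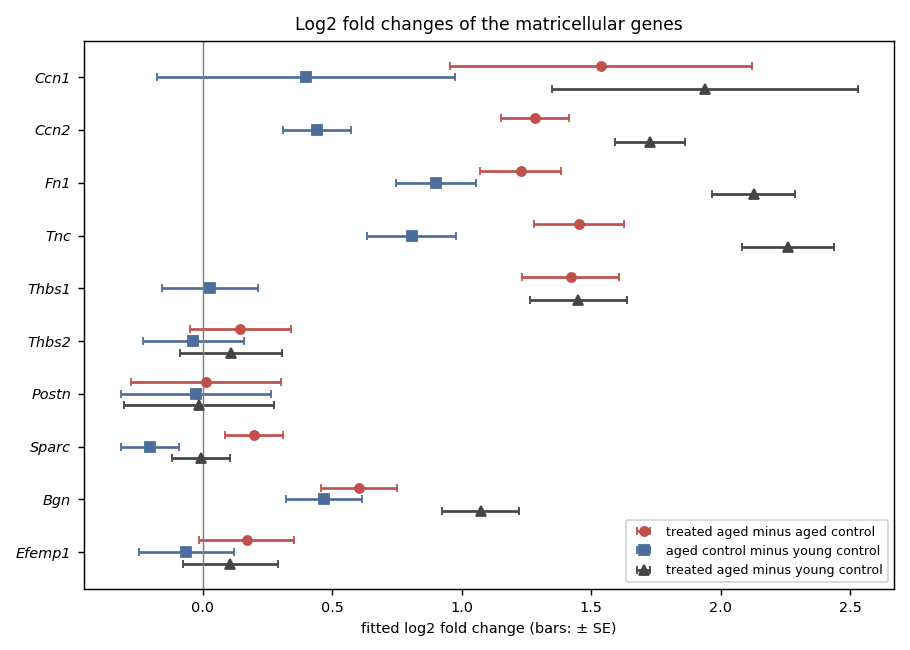
Fitted log2 fold changes (horizontal axis, bars ± SE, 9 libraries) of the 10 genes (vertical axis) in the 3 comparisons. Ccn2, Fn1, Tnc and Thbs1 lie between 1.23 and 1.45 for treated aged against aged control, where Thbs2, Postn, Sparc and Efemp1 lie between 0.01 and 0.20.

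Across the table, 4.34% of 25273 genes tested were called between treated aged and aged control libraries by edgeR's quasi-likelihood test at an adjusted p under 0.05, 2.37% of the genes tested higher and 1.97% lower. Of the 10 genes, 5 were called, all higher: Ccn2, Fn1, Tnc, Thbs1 and Bgn. The rule that chose the genes used this comparison, so nothing is read from that count. It was 2, 1 and 3 without aged control replicates 1, 2 and 3, and 4 or 5 without any other single library. For 6 genes, these 5 and Sparc, every treated aged library was higher than every aged control; 14.7% of all genes had such a gap in that direction and 17.5% in the other. The median log2 fold change of the 10 genes was 0.92, against -0.01 for all genes tested, and 0.60 in the 7 libraries.

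Between aged and young controls, 1.68% of all genes were called, 1.48% higher. Fn1 and Tnc were the 2 members called, again with the comparison used by the rule. Neither kept its call without any 1 of the aged controls or without young control 1 or 3, and the count was 1 without treated aged 1 or young control 2. Every aged control was higher than every young control for 5 genes, Ccn1, Ccn2, Fn1, Tnc and Bgn, a gap that 13.2% of all genes showed. The median of the 10 genes was 0.21, against -0.01 for all genes, and 0.39 in the 7 libraries.

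Between treated aged and young control libraries, 16.7% of all genes were called, 9.01% higher and 7.69% lower. The 5 members called were Ccn2, Fn1, Tnc, Thbs1 and Bgn, and the same 5 with Ccn1 had no overlap, against 15.9% of all genes in that direction and 17.3% in the other. The median of the 10 genes was 1.26, against -0.01 for all genes, and 1.04 in the 7 libraries. The rule that chose the genes used this comparison too, so nothing is read from these counts or this median. The 3 comparisons share libraries: aged controls enter 2 of them, and treated aged and young control libraries enter 2 each, so they are not independent.

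**Figure D3:**
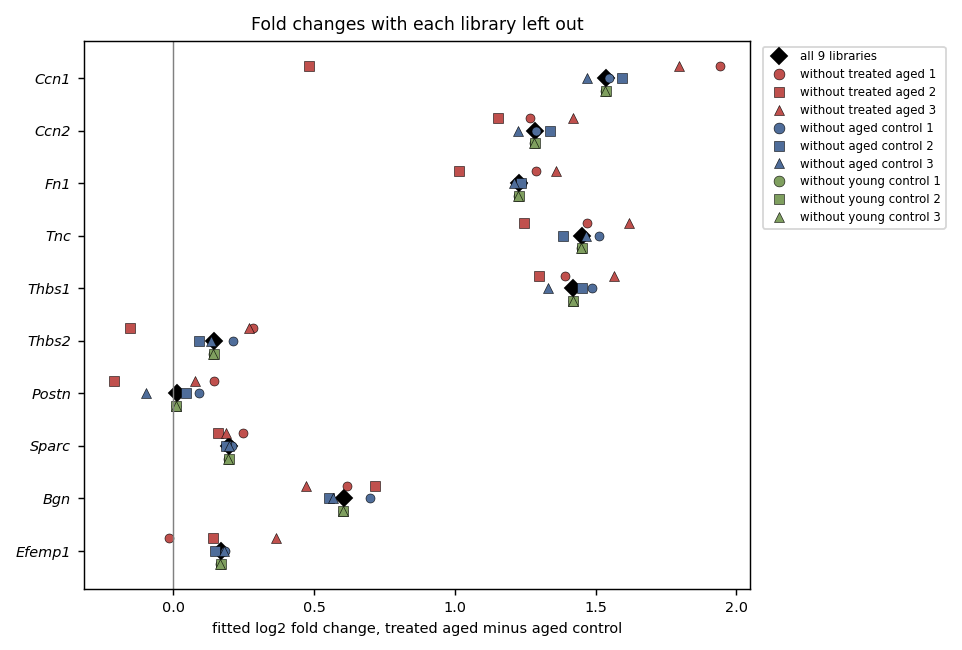
Fitted log2 fold change for treated aged against aged control (horizontal axis) of each gene (vertical axis) with all 9 libraries and with each library left out. Ccn2 stays between 1.15 and 1.42 and Thbs1 between 1.30 and 1.56, while Ccn1 ranges between 0.48 and 1.94.

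Levels can be ordered between genes only per length. By the deposited FPKM, which divides by the whole gene span with introns, Ccn2 was highest and Thbs1 next in every group. Ccn2 had 221 ± 38.5 FPKM in treated aged libraries, 94.7 ± 6.61 FPKM in aged controls and 68.1 ± 4.46 FPKM in young controls (SD, n = 3 each). Thbs1 had 79.8 ± 13.8 FPKM in treated aged libraries, 31.1 ± 3.32 FPKM in aged controls and 29.8 ± 7.13 FPKM in young controls. Their libraries did not overlap in any group on that scale. Among aged controls, Bgn, Ccn1, Sparc, Thbs2, Fn1, Postn, Tnc and Efemp1 followed in that order, and only the neighbours Ccn1 and Sparc, and Tnc and Efemp1, overlapped.

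The order depended on the length used. Exons make up 88.2% of the span of Ccn2 but 2.77% of that of Efemp1. By CPM per kilobase of merged exons (GENCODE M21), Efemp1 ranked 4 and not last among aged controls, at 26.0 CPM per kilobase. The deposited length was the whole span for 40200 of 40200 genes with 1 span, so counts may include reads in introns. The exon scale sets any such reads over exon bases alone, which could raise genes with few exon bases. Their share was not tested, so neither order is taken as the true one. On that scale Ccn2 had 256 CPM per kilobase in treated aged libraries, 105 in aged controls and 77.4 in young controls. Thbs1 had 205 CPM per kilobase in treated aged libraries, 76.5 in aged controls and 75.0 in young controls. In treated aged and in young control libraries the pair overlapped. Sparc, at 74.0 CPM per kilobase in treated aged libraries, 64.5 in aged controls and 74.3 in young controls, overlapped with Thbs1 among young controls. Postn was lowest in every group, at 3.80 CPM per kilobase in treated aged libraries, 3.77 in aged controls and 3.84 in young controls, where it overlapped with Tnc.

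**Figure D4:**
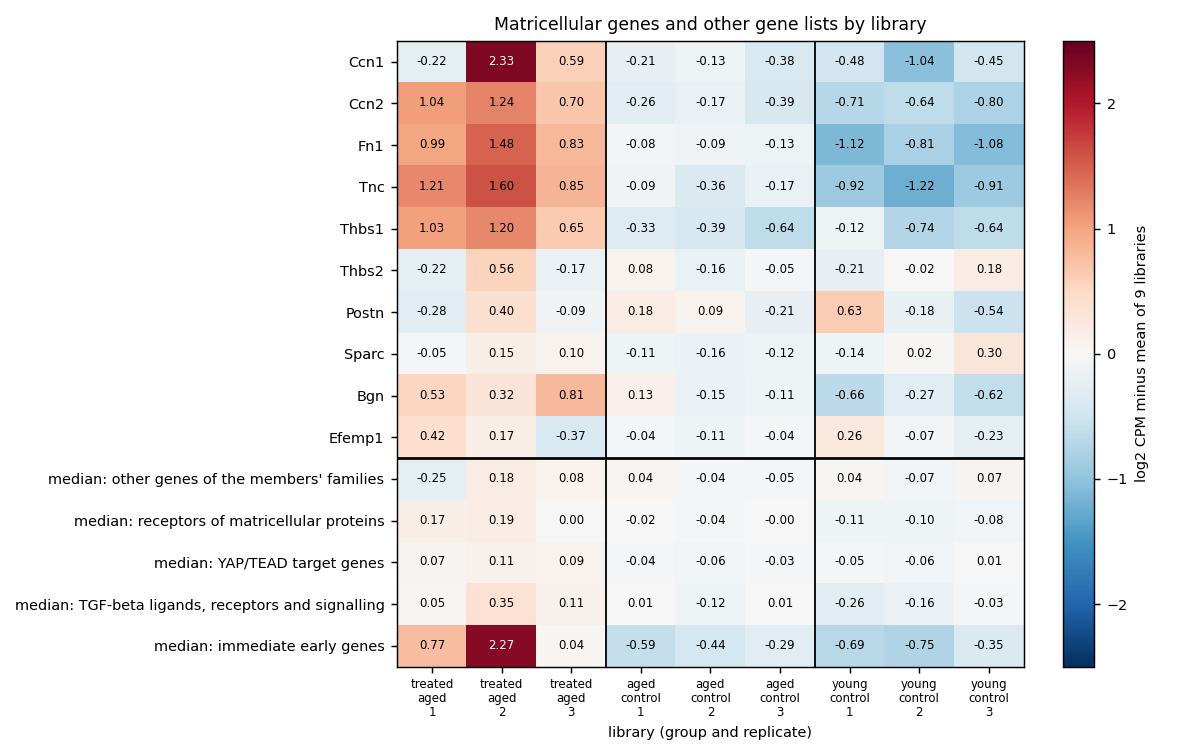
Log2 CPM minus the mean of 9 libraries, by library (horizontal axis), for the 10 genes and for the median gene of 5 other lists (vertical axis). Ccn1 and the median immediate early gene share their highest value in treated aged replicate 2, at 2.33 and 2.27.

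Within the treated aged group, replicate 2 was highest for 8 of the 10 genes, the exceptions being Bgn and Efemp1. Over the 9 libraries, log2 CPM of Ccn2 and Fn1 were correlated at r = 0.98, Ccn2 and Tnc at 0.98, and Fn1 and Tnc at 0.98. These values mostly describe the gap between groups. After each group's mean was subtracted, r was 0.84 for Ccn2 with Fn1, 0.60 for Ccn2 with Tnc and 0.57 for Fn1 with Tnc, and Ccn1 was closest to Thbs2 at 0.83. Bgn ran against Tnc at -0.71. Ccn1 and Thbs2 each had their highest value of all 9 libraries in treated aged replicate 2. The part of that library in these r values was not tested.

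Among 19486 genes searched, the most alike to Ccn2 over the 9 libraries was Atp8b1, a phospholipid flippase (r = 0.996). Its r was 0.99 without the 2 libraries farthest from the median of Ccn2. Galnt15 and Gm36459 followed (0.99 each). Atp8b1 had 168, 183 and 129 CPM in treated aged libraries, against 79.7, 75.4 and 69.3 CPM in aged controls and 54.7, 59.7 and 57.7 CPM in young controls. For Thbs1 it was Il1r2, the decoy receptor of interleukin-1, at 0.98, for Sparc Crnde at 0.96 and for Bgn B930095G15Rik at 0.99. For Ccn1 it was Adam28 at 0.99, and 0.92 without the 2 farthest libraries. Adam28 had 12.3 CPM in treated aged replicate 2 and at most 1.83 CPM in any other library. Each r is the largest of 19486 over only 9 libraries, and group means were not subtracted. Genes that share the gaps between groups, or 1 high library, reach such values, so nothing further is read from them.

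Immediate early genes encode transcription factors and phosphatases that cells switch on within minutes of a stimulus, and CCN1 is often counted with them. The list of these genes and the lists below were chosen with earlier results of these data known, so their shares are a description. Of 24 immediate early genes tested, 5 were higher in treated aged libraries than in aged controls (20.8%, against 4.34% of all genes), with a median log2 fold change of 1.84. Without treated aged replicate 2 the median was 0.92, and 0.91 in the 7 libraries. In each of these fits 5 were called, but Myc was not among them. The count was 0 without any single aged control and 1 without treated aged replicate 1. With all 9 libraries the 5 were Maff, Dusp1 and Myc, with Fosl1 and Klf4 named after their values were seen. Maff, a small Maf factor, averaged 24.3 ± 13.8 CPM in treated aged libraries and 6.30 ± 0.446 CPM in aged controls (SD, n = 3 each), a log2 fold change of 1.94 ± 0.35 (edgeR adjusted p = 0.0269). Dusp1, a phosphatase that switches off MAP kinases, averaged 50.9 ± 36.6 CPM in treated aged libraries and 11.5 ± 1.62 CPM in aged controls, at 2.15 ± 0.47 (edgeR adjusted p = 0.0452). Without treated aged replicate 2 its log2 fold change was 1.40, and it stayed called only without treated aged replicate 2 or 3, with edgeR adjusted p up to 0.186 when any other single library was omitted. The list's median stood at 0.77, 2.27 and 0.04 above its mean over all libraries in treated aged replicates 1, 2 and 3, so replicate 2 was highest here too. Between aged and young controls 0 of 24 were called by edgeR, 0 at an unadjusted p under 0.05 and 0 by DESeq2.

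Of 34 other genes of the members' families, 3 were called between treated aged and aged control libraries (8.82%, against 4.34% of all genes), with a median of 0.12, and 0.06 without treated aged replicate 2. Tnn, tenascin-N, was higher, at 1.40 ± 0.365 CPM in treated aged libraries and 0.454 ± 0.122 CPM in aged controls (log2 fold change 1.63 ± 0.33, edgeR adjusted p = 0.0300). Fbln7, a fibulin, was lower, at 12.1 ± 0.564 CPM in treated aged libraries and 18.6 ± 0.72 CPM in aged controls (-0.62 ± 0.13, edgeR adjusted p = 0.0325). Sparcl1, the closest relative of Sparc, was lower, at 115.9 ± 6.98 CPM in treated aged libraries and 147 ± 5.02 CPM in aged controls (-0.34 ± 0.08, edgeR adjusted p = 0.0410). Between aged and young controls 0 were called by edgeR, 7 at an unadjusted p under 0.05 and 2 by DESeq2. Between treated aged and young control libraries 4 were higher and 4 lower (23.5%, against 16.7% of all genes). Lum, lumican, a leucine-rich proteoglycan and fibroblast marker, was among the lower ones, at 179.8 ± 28.1 CPM in treated aged libraries and 303 ± 22.3 CPM in young controls (-0.75 ± 0.12, edgeR adjusted p = 0.00515).

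Among 34 receptors of matricellular proteins, 3 were higher and 1 lower in treated aged libraries than in aged controls (11.8%, against 4.34% of all genes), with a median of 0.16. Itgb3, the beta subunit of an integrin that binds fibronectin, thrombospondin and CCN proteins, averaged 31.8 ± 7.86 CPM in treated aged libraries and 17.0 ± 1.54 CPM in aged controls (0.90 ± 0.16, edgeR adjusted p = 0.0217). Cd47, a thrombospondin-1 receptor, averaged 125 ± 19.0 CPM in treated aged libraries and 86.5 ± 0.501 CPM in aged controls (0.53 ± 0.10, edgeR adjusted p = 0.0282). The third was Itga5, the alpha subunit of the main fibronectin receptor, named after its values were seen. Itgb6, an epithelial integrin subunit, was lower, at 11.5 ± 2.50 CPM in treated aged libraries and 19.5 ± 1.21 CPM in aged controls (-0.76 ± 0.15, edgeR adjusted p = 0.0301). Between aged and young controls the leukocyte integrin subunits Itgb2 and Itgam were called (5.88% of the 34, against 1.68% of all genes). Itgb2 averaged 69.1 ± 3.01 CPM in aged controls and 31.0 ± 7.33 CPM in young controls (1.16 ± 0.14, edgeR adjusted p = 0.00513). Macrophage markers moved with them, summing to between 787 and 872 CPM in aged controls and between 474 and 609 CPM in young controls, and their part was not tested. The call of Itgam was lost without aged control 1 or 3 or young control 1 or 3 (edgeR adjusted p up to 0.0809). Between treated aged and young control libraries 10 receptors were higher and 2 lower (35.3%, against 16.7% of all genes).

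Among 22 YAP and TEAD target genes other than the CCN pair, 1 was higher and 1 lower in treated aged libraries than in aged controls (9.09%, against 4.34% of all genes), with a median of 0.19. Igfbp3, a carrier of insulin-like growth factors, averaged 105 ± 20.4 CPM in treated aged libraries and 46.9 ± 5.81 CPM in aged controls (1.16 ± 0.14, edgeR adjusted p = 0.00626). Amotl2, which binds and restrains YAP, averaged 76.1 ± 10.3 CPM in treated aged libraries and 102 ± 6.01 CPM in aged controls (-0.42 ± 0.10, edgeR adjusted p = 0.0452). Between aged and young controls 0 were called by edgeR, 3 at an unadjusted p under 0.05 and 0 by DESeq2. Against young controls 5 were higher and 1 lower in treated aged libraries (27.3%, against 16.7% of all genes).

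Of 27 TGF-beta ligands, receptors and signalling genes, 1 was called between treated aged and aged control libraries (3.70%, against 4.34% of all genes), with a median of 0.20. Between aged and young controls 0 were called by edgeR, 6 at an unadjusted p under 0.05 and 2 by DESeq2. Against young controls 11 were higher in treated aged libraries (40.7%, against 16.7% of all genes), with a median of 0.36. Without treated aged replicate 2, 6 were called, and the median was 0.27. Tgfb1, the ligand, averaged 13.5 ± 1.22 CPM in treated aged libraries and 7.59 ± 1.23 CPM in young controls (0.84 ± 0.14, edgeR adjusted p = 0.00638). Ltbp2, a fibrillin-binding matrix protein, averaged 95.1 ± 26.6 CPM in treated aged libraries and 40.9 ± 2.17 CPM in young controls (1.22 ± 0.19, edgeR adjusted p = 0.00493).

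Of the 12 genes outside the 10 that the naming rule picked as called between treated aged and aged control libraries, 1, 0 and 1 kept their call without aged controls 1, 2 and 3. The number was 6 and 5 without treated aged replicates 1 and 2, 12 without replicate 3, and 9, 3 and 7 without young controls 1, 2 and 3. In the 7 libraries 7 kept their call, and Cd47, Itgb6, Sparcl1, Amotl2 and Myc did not (edgeR adjusted p between 0.0539 and 0.1). All 12 kept their direction in each of the 9 fits. Igfbp3 lost its call in 1 of the 9, without aged control 2 (edgeR adjusted p = 0.0542). Of the 15 such genes called between treated aged and young control libraries, between 13 and 15 kept their call with 1 library left out, and 12 in the 7 libraries. With only the 2 groups compared, 12 of these 15 kept it, against 2 of the 12 for treated aged against aged control. With the replicate number as a block, 15 of the 15 and 3 of the 12 kept it.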

How the data were processed

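RPE RNA was sequenced after a stranded total RNA library kit, per the labels' protocols. Bowtie2 2.3.4.1, featureCounts 1.6.0, DESeq2 and GRCm38 are named, per the submitters' processing notes. The deposited table holds raw counts per gene and FPKM values by the authors. FPKM equalled the deposited count divided by gene span and library total for 361818 of 361818 values (relative tolerance 1e-06). The chromosome identifiers of the table are those of a later assembly than GRCm38, so the gene positions given are the table's own and its build is uncertain; promoter sequences and their coordinates are GRCm38.p6. Whether counting used strand is not given in the sources used here.

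From the counts, edgeR 4.0.16 (limma 3.58.1, R 4.3.3) was run with TMM factors, filterByExpr over 3 groups and a robust quasi-likelihood fit of all 9 libraries, with Benjamini-Hochberg adjustment over 25273 genes and calls at 0.05. CPM are per TMM-scaled total, and log2 CPM used a prior count of 2. The SE of a log2 fold change is its absolute value over the square root of the test's F statistic. It rests on a spread shared by all 3 groups, and so does not measure the spread of the 2 groups compared. DESeq2 1.42.0, other size factors, other filters, subsets of libraries and a replicate block were the alternatives. The 10 members and all gene lists were chosen with earlier results of these data known. Named from each other list were up to 3 called genes of smallest p per comparison, or the 1 of smallest p where none was called, and for 5 members the 3 genes with mean CPM of at least 1 most correlated. A gene that this rule names is not reported here. No set test was run.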

Additional observations from a re-analysis of the deposited data

How the results depend on the processing

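The fitted log2 fold changes of the 10 genes kept their direction where called. Under the alternatives, 6 of 450 values moved by more than the SD between replicates of the 2 groups compared. Leaving 1 library out seldom shifts a group mean that far, so little is read from this count. Genes not called could change sign and still count as unmoved. For treated aged against aged control, Thbs2 went from 0.15 to -0.15 and Postn from 0.01 to -0.21 without treated aged replicate 2. Without treated aged replicate 2 and young control replicate 1, the log2 fold change for treated aged against young control was 1.85 for Fn1. The median of the 10 genes lay between 0.60 and 0.97 with 1 library left out for treated aged against aged control, between 0.10 and 0.39 for aged against young control and between 1.04 and 1.33 for treated aged against young control. In the 7 libraries it was 0.60 and 0.39 for the first 2 comparisons.

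Counts of called genes depended on the setting, and the cause was not tested. For treated aged against aged control, 1098 genes were called, against 3102 with DESeq2, 178 with only the 2 groups compared and between 25 and 4092 with 1 library left out (35, 25 and 63 without aged controls 1, 2 and 3; 634, 561 and 4092 without treated aged 1, 2 and 3; 345 and 617 without young controls 2 and 3). Called family genes (3) were 5 with RLE factors, 8 with DESeq2, 1 with 2 groups and 0 to 8 with 1 library left out. Receptors (4) were 8 with DESeq2, 0 with 2 groups, 1 in the 7 libraries and 0 to 11 with 1 left out. YAP and TEAD targets (2) were 8 with DESeq2, 1 with 2 groups, 1 in the 7 libraries and 0 to 7 with 1 left out. TGF-beta genes (1) were 2 with RLE factors, 7 with DESeq2, 0 without a filter, 0 with 2 groups, 2 in the 7 libraries and 0 to 8 with 1 left out. Immediate early genes (5) were 20 with DESeq2, 2 without a filter, 0 with 2 groups and 0 to 19 with 1 left out.

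For aged against young control, 424 genes were called, against 949 with DESeq2, 1239 with 2 groups and between 73 and 688 with 1 left out. Family genes (0) were 2 with DESeq2, 5 with 2 groups, 1 in the 7 libraries and 0 to 1 with 1 left out. Receptors (2) were 5 with DESeq2, 8 with 2 groups, 4 in the 7 libraries and 1 to 5 with 1 left out. YAP and TEAD targets (0) were 2 with 2 groups and 0 to 1 with 1 left out. TGF-beta genes (0) were 2 with DESeq2, 1 without a filter, 5 with 2 groups and 0 to 3 with 1 left out. Immediate early genes (0) were 2 with 2 groups, 1 in the 7 libraries and 0 to 1 with 1 left out.

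For treated aged against young control, 4222 genes were called, against 1041 with 2 groups, 1794 in the 7 libraries and between 1775 and 6086 with 1 left out. Family genes (8) were 14 with DESeq2, 2 with 2 groups and 4 to 10 with 1 left out. Receptors (12) were 6 with 2 groups and 6 to 15 with 1 left out. YAP and TEAD targets (6) were 3 with 2 groups and 3 to 8 with 1 left out. TGF-beta genes (11) were 5 with 2 groups, 6 in the 7 libraries and 5 to 12 with 1 left out. Immediate early genes (14) were 5 without a filter, 1 with 2 groups, 6 in the 7 libraries and 2 to 19 with 1 left out.

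The labels do not say that replicate numbers pair the samples. Deviations of same-numbered libraries correlated between -0.08 and 0.15, and those of differently numbered ones between -0.30 and 0.25. With 3 libraries per group these values cannot settle whether samples were paired. With the number as a replicate block, 317, 322 and 3587 genes were called in the 3 comparisons, in the order above. For treated aged against aged control the block called 0 family genes, 1 receptor, 1 YAP or TEAD target, 0 TGF-beta genes and 1 immediate early gene, and 6 immediate early genes for treated aged against young control. Every named list gene kept its direction under every alternative. With 3 libraries per group, differences near 0 in Thbs2, Postn, Sparc and Efemp1 cannot be told from replicate spread.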
